A study of Mus musculus with 8 samples.

Results

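The genes described here are 10 enzymes and helper proteins that modify, fold, trim or crosslink collagen: P4ha1, P4ha2, P4ha3, Plod1, Plod2, Serpinh1, Pcolce, Lox, Loxl1 and Loxl2. They were taken by symbol from a table of 24675 named genes, not by their values, and all 10 are in that table with 1 row each. Expression was measured with Affymetrix mouse Gene 2.0 ST arrays in C57Bl/6 mouse embryos (embryonic day 12.5), and the labels name no transgene, mutation or treatment. The dorsal group (4 arrays) is tissue above the dorsal aorta, up to the notochord, and the ventral group (4 arrays) is tissue below the vessel. Both were laser microdissected from 20 µm cryosections of the same embryos, and 200 to 1000 pg of RNA was amplified before hybridisation. The arrays are labelled as biological replicates 1 to 4 of each tissue. How many embryos went into an array is not given in the sources used here, so p-values rest on these arrays. In the main test they measure the spread of the ventral minus dorsal difference over the 4 replicate numbers.

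Collagen chains are modified in the endoplasmic reticulum before they leave the cell. Prolyl 4-hydroxylases add hydroxyl groups that keep the triple helix stable, and lysyl hydroxylases modify lysines that later carry sugars or crosslinks. Hsp47, the product of Serpinh1, binds the folded helix until it is exported. Outside the cell the propeptides are cut off, a step enhanced by Pcolce, and lysyl oxidases convert lysines to the aldehydes that crosslink collagen and elastin. Fibroblasts, smooth muscle and cartilage use this machinery to build the connective tissue around the aorta and the vertebral column.

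Of the 10 genes, Plod2 alone had tissues that did not overlap. It encodes the lysyl hydroxylase known for modifying the telopeptides, the ends of the collagen chain where crosslinks form. Dorsal arrays had a mean log2 level of 8.08 ± 0.63 and ventral arrays one of 6.41 ± 0.41 (SD, n = 4), which is 3.17 times higher dorsally (95% interval 1.91 to 5.25). It did not pass the test after adjustment over all genes (limma, adjusted p = 0.211). For the other 9 genes the tissues overlapped and the ventral minus dorsal difference lay between -0.42 and 0.51 on the log2 scale.

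All 10 genes were among the 12416 genes tested, those above the array's median on at least 4 of the 8 arrays. The test was limma's, with the replicate number as a block and a two-sided p adjusted over all genes tested. It called 0 of the 10 genes and 0% of all genes tested at an adjusted p under 0.05. Without the block limma also called 0 of the 10, beside 0.0322% of all genes. At an unadjusted p under 0.05 it had 1 of the 10 genes, Plod2, beside a background of 8.26% of all genes tested (4.18% lower in ventral tissue, as Plod2 was). Tissues did not overlap for 1 of the 10 genes, again Plod2, beside 4.39% of all genes tested (2.38% with ventral below dorsal). The median difference of the 10 genes was -0.0891 and that of all genes tested was -0.00391. The median size of the difference, without its sign, was 0.17 for the 10 genes and 0.16 for all genes. Of the 10 genes, 4 had a higher and 6 a lower ventral estimate. Without replicate number 1, 4 of the 10 genes had an unadjusted p under 0.05, namely Plod2, P4ha1, Lox and Pcolce, and 0 an adjusted p under 0.05.

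**Figure D1:**
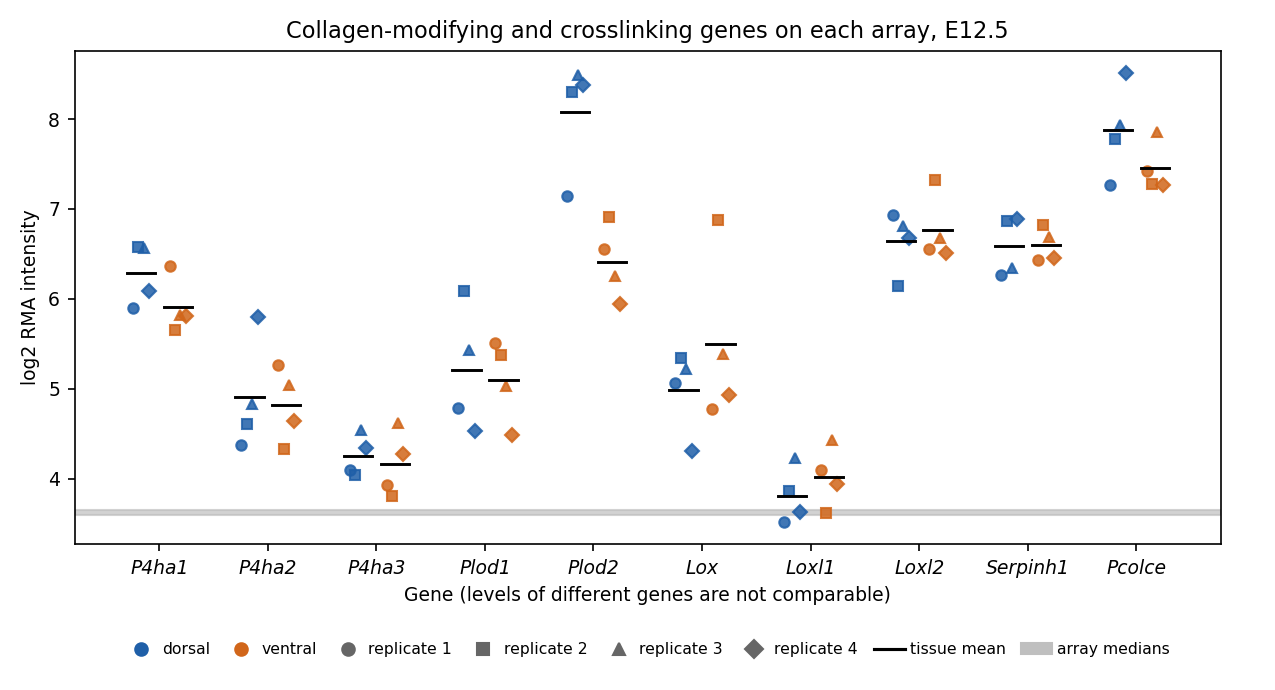
Log2 RMA intensity of the 10 collagen-modifying genes on each of the 8 arrays (blue dorsal, orange ventral, marker shape by replicate number, black bar the tissue mean, grey band the array medians from 3.59 to 3.65). The blue and orange points separate for Plod2, with dorsal values from 7.14 to 8.49 and ventral values from 5.94 to 6.91, and intermingle for the other 9 genes.

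Some arrays stood apart by marker genes of neighbouring tissue, and their part in the results below was not tested. The mean level of 9 liver genes was 7.48 in dorsal replicate 4 and 5.92 in ventral replicate 4, against 3.64 to 3.80 on the other 6 arrays. The mean of 8 erythroid genes was also highest in those libraries, at 8.89 and 7.57, against 6.62 to 7.08 elsewhere. The mean of 10 spinal cord genes was 5.13 in dorsal replicate 1 and 3.46 to 4.08 on the other arrays. That list was split. Fabp7 (11.18), Sox2 (7.83) and Zic1 (6.72) stood out in dorsal replicate 1. Fabp7 was also at 8.22 in ventral replicate 1 and 7.68 in ventral replicate 3. Pax6, Olig2, Nkx6-1, Irx3, Neurog2 and Sox21 lay within the range of the other arrays, and Sox1 (3.46) was under the array median. For 9 genes of sympathetic and adrenal medulla cells the mean was 7.30 in ventral replicate 1 and 6.38 in ventral replicate 3. On the other arrays that mean was 4.53 to 5.38. In bulk tissue, fewer cells of a type and less RNA per cell cannot be told apart.

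The 3 P4ha genes encode the catalytic alpha subunits of prolyl 4-hydroxylase, which pair with the beta subunit P4hb. P4ha1, the main alpha subunit in most tissues, stood at 5.90, 6.58, 6.56 and 6.09 in dorsal replicates 1 to 4 and at 6.36, 5.65, 5.82 and 5.81 in ventral replicates 1 to 4. The ventral array was lower in 3 of 4 replicate numbers, and ventral replicate 1 lay within the dorsal range. The difference was -0.37 (SE 0.26, limma adjusted p = 0.78), with an interval from -0.98 to 0.23. P4ha2, the alpha subunit prominent in cartilage and bone, stood at 4.37, 4.61, 4.83 and 5.80 in dorsal and 5.26, 4.33, 5.04 and 4.64 in ventral replicates 1 to 4. Dorsal replicate 4 had the highest value, and the ventral values spanned the range of the other 3 dorsal arrays. Its difference was -0.0834 (SE 0.32, limma adjusted p = 0.974), and 0.27 without replicate number 4. P4ha3, a further alpha subunit, stood at 4.09, 4.04, 4.54 and 4.34 in dorsal and 3.93, 3.81, 4.62 and 4.27 in ventral replicates 1 to 4. Both tissues had their highest P4ha3 value in replicate number 3, and the difference was -0.0949 (interval -0.44 to 0.26, limma adjusted p = 0.921). P4hb, the beta subunit, which also acts as protein disulfide isomerase, differed by 0.026 (interval -0.44 to 0.50). The intervals of P4ha1 and P4ha2 leave room for differences close to 1 on the log2 scale, so equal levels were not shown.

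P4ha1 and P4ha2 are known targets of hypoxia-inducible factors, which bind elements whose core can read ACGTG. Their promoters are shown for those letters, and other forms of the core were not counted. Promoter windows (RefSeq, GRCm38.p6) run from 250 bases before to 50 after a start site. They matched 6 of the 10 genes: P4ha1, P4ha2, P4ha3, Plod1, Serpinh1 and Pcolce. For P4ha1, P4ha3 and Pcolce the annotated gene begins before that start site, so 151, 219 and 132 bases lie before the gene. The letters ACGTG occurred on either strand in 3 of these 6 windows and in 19.6% of 32851 promoter windows of the same length. The GC box letters GGGCGG occurred on either strand in 6 of 6 windows and in 35.7% of all windows. Sequence from the 3 windows with ACGTG is shown 5′ to 3′ on the gene's strand, with ACGTG or its reverse complement CACGT in capitals. For P4ha1 (chr10:59323268-59323297, plus strand) a 30-base stretch is given. Its match lies before the window's start site but inside the annotated gene. For P4ha2 (chr11:54100674-54100923, plus strand) and Serpinh1 (chr7:99353240-99353489, minus strand) the 250 bases before the start site are given. The P4ha2 window has 2 matches, of which 1 lies after the start site and is not shown. A match describes letters and no factor's binding was measured.
P4ha1: tgtgacagagcgCACGTagcgagggctgcg
P4ha2: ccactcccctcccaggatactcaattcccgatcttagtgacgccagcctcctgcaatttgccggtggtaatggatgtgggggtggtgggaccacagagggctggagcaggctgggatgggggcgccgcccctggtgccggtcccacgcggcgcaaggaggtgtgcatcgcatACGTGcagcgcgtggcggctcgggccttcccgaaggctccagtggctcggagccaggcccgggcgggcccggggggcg
Serpinh1: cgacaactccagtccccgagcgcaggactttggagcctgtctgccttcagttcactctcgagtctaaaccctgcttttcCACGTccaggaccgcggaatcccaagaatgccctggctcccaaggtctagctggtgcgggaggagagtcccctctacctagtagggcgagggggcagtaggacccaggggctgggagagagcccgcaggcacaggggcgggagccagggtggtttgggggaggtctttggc

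Beside these promoters stands a list of 20 genes of the hypoxia response, 17 of them tested. Of the 17, 10 had a higher and 7 a lower ventral estimate, with a median difference of 0.0562, and 0 passed the adjusted threshold. At an unadjusted p under 0.05 there was 1 gene, Vegfa, the main growth factor of blood vessels, beside the background of 8.26%. Vegfa stood at 5.93, 5.97, 6.18 and 5.99 in dorsal and 5.53, 5.79, 5.54 and 5.48 in ventral replicates 1 to 4, and the tissues did not overlap. Its difference was -0.43 (SE 0.18, limma adjusted p = 0.589). Of the other genes with the smallest p in the list, Bhlhe40, a transcriptional repressor, differed by -0.45 (limma adjusted p = 0.671). Egln3, an oxygen sensor that marks hypoxia-inducible factors for breakdown, differed by 0.38 (limma adjusted p = 0.771).

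Among the lysyl hydroxylases, Plod2 stood at 7.14, 8.30, 8.49 and 8.38 in dorsal replicates 1 to 4 and at 6.55, 6.91, 6.25 and 5.94 in ventral replicates 1 to 4. Every dorsal array lay above every ventral array, and dorsal replicate 1 was the lowest of the dorsal arrays by more than 1 log2 unit. The difference was -1.66 (SE 0.31, unadjusted p = 0.000984, limma adjusted p = 0.211), rank 56 of 12416 genes by p. By replicate number it was -0.59, -1.39, -2.24 and -2.43, so ventral tissue was lower in 4 of 4. Leaving out 1 replicate number gave differences from -2.02 to -1.40. The widest was without number 1 (limma adjusted p = 0.0667), and the adjusted p rose to 0.691 without number 3.

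Plod1, the lysyl hydroxylase that acts on the helical part of collagen, stood at 4.78, 6.09, 5.43 and 4.53 in dorsal and 5.51, 5.37, 5.03 and 4.48 in ventral replicates 1 to 4. The dorsal values spread over 1.56 and enclosed all ventral values except that of replicate 4, which lay just below them. The difference was -0.11 (SE 0.26, limma adjusted p = 0.955), with an interval from -0.72 to 0.51. Plod3, which also carries glycosyltransferase activity, stood at 5.26, 5.51, 5.58 and 4.93 in dorsal and 5.16, 5.94, 5.12 and 5.17 in ventral replicates 1 to 4. Its difference was 0.0269 (interval -0.47 to 0.52, limma adjusted p = 0.989).

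Plod2 was also set against the other lysyl hydroxylases within each array, pairs chosen after the values were seen and given as a description with no test. Plod2 minus Plod1 averaged 2.87 ± 0.75 dorsally and 1.32 ± 0.23 ventrally (SD, n = 4). Plod2 minus Plod3 averaged 2.75 ± 0.65 dorsally and 1.06 ± 0.27 ventrally. In both cases the lowest dorsal array (2.21 and 1.88) lay above the highest ventral array (1.53 and 1.39). The height of each such value depends on the probes, so the gap between tissues alone can be read, and it restates the Plod2 levels above.

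Markers of cartilage and of the sclerotome, the somite cells that build the vertebral column, lay on the dorsal side with Plod2. Of 12 such markers, 8 were tested, with a median difference of -1.93. At an unadjusted p under 0.05, 8 of 8 had a lower ventral estimate, beside 4.18% of all genes tested. Acan and Pax1 exceeded the array median on 5 and 6 of 8 arrays, all dorsal arrays among them. Their dorsal levels alone let them into the test, so their direction is not independent of the filter. Of the untested markers, Comp had means of 2.92 dorsally and 2.95 ventrally, while Matn1, Matn4 and Cnmd had lower ventral means. Pax9, a transcription factor of the sclerotome, ranged from 6.06 to 6.83 in dorsal and from 4.15 to 4.94 in ventral tissue. The mean level of the 12 was 5.15, 6.19, 5.85 and 4.93 in dorsal and 4.09, 4.17, 4.20 and 3.97 in ventral replicates 1 to 4. The log2 of their summed intensity ranged from 9.31 to 10.78 in dorsal and from 8.03 to 8.44 in ventral tissue. The cartilage matrix genes Matn1 and Comp lay under the array median on all 8 arrays. Earlier results of these data had already shown the dorsal level of sclerotome genes, so the list is not independent support. Its part in the Plod2 difference was not tested. Within the dorsal arrays the order of the marker mean differed from that of Plod2. Replicate 4 had the lowest marker mean (4.93) beside a Plod2 level of 8.38. Replicate 1 had the lowest Plod2 level beside a marker mean of 5.15. The markers were split there. Sox9 (7.07 and 7.79) and Nkx3-2 (4.59 and 5.88) were lower in dorsal replicate 1 than in dorsal replicate 4. Hapln1 (7.03 and 4.99) and Cnmd (4.89 and 2.94) were higher.

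**Figure D2:**
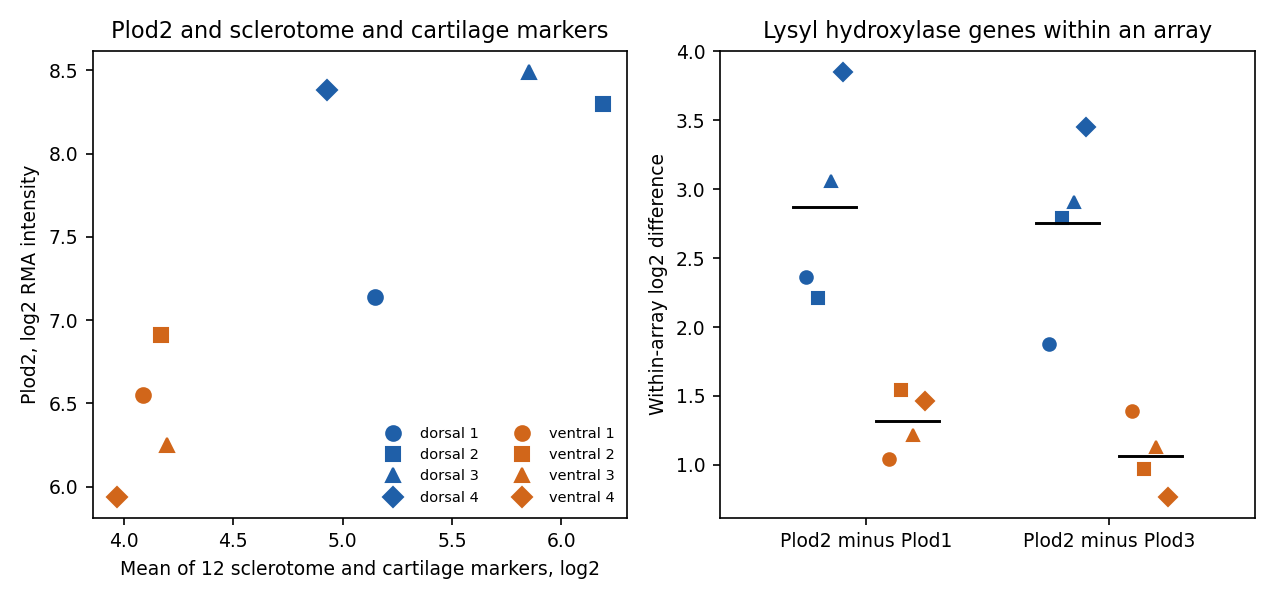
Left, Plod2 (log2 RMA intensity) against the mean log2 level of 12 sclerotome and cartilage markers on each array. Right, Plod2 minus Plod1 and Plod2 minus Plod3 within each array (log2, black bar the tissue mean, marker shapes as on the left), where all 4 dorsal arrays (blue) lie above all 4 ventral arrays (orange).

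Among genes outside the 10, those whose level followed Plod2 most closely over the 8 arrays were Smox and Lrig3 (Pearson r = 0.97 each), Fgfr2 and AI646519 (0.96 each) and Prss12 (0.95). Smox oxidises the polyamine spermine, Lrig3 is a membrane protein with leucine-rich repeats, Fgfr2 is a receptor of fibroblast growth factors and AI646519 is a long non-coding RNA. Lrig3 stood at 6.48, 7.86, 8.02 and 7.64 in dorsal and 6.53, 6.41, 6.33 and 5.92 in ventral replicates 1 to 4. Like Plod2, it was lowest of the dorsal arrays in replicate 1. These correlations were picked as the highest of all tested genes, and they include the gap between the tissues and whatever the 8 arrays share.

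Serpinh1 had the smallest estimated difference of the 10 genes. The chaperone stood at 6.27, 6.86, 6.34 and 6.89 in dorsal and 6.43, 6.82, 6.69 and 6.45 in ventral replicates 1 to 4. All 4 ventral values lay inside the dorsal range, and ventral tissue was higher in 2 of 4 replicate numbers. The difference was 0.00619 (SE 0.19, limma adjusted p = 0.997), with an interval from -0.44 to 0.46. As a dorsal over ventral ratio, that interval runs from 0.729 to 1.36. Its sign changed with the replicate number left out, from -0.11 to 0.16.

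Pcolce, which speeds the removal of the C-terminal propeptide, stood at 7.27, 7.78, 7.93 and 8.51 in dorsal and 7.42, 7.28, 7.85 and 7.27 in ventral replicates 1 to 4. Dorsal replicate 4 was the highest array, while dorsal replicate 1 lay with the lowest ventral ones. The difference was -0.42 (SE 0.24, interval -0.98 to 0.15, limma adjusted p = 0.735) and -0.14 without replicate number 4. The mean of 10 fibroblast and mesenchyme markers was 7.26 in dorsal replicate 4, against 6.36 to 7.06 on the other dorsal arrays. Its members were split there. Dorsal replicate 4 held the highest dorsal level of the matrix genes Dcn (8.79, against 5.76 to 6.33 on the other dorsal arrays), Lum (9.89, against 8.09 to 8.36) and Postn (9.74, against 5.92 to 7.01), but the lowest of the receptor Pdgfra (6.70, against 6.87 to 7.71) and the transcription factor Prrx1 (6.17, against 7.10 to 8.13). The mean of 8 mesothelium markers was 5.67 in that array, against 4.09 to 4.33 on the other dorsal arrays. All of them but Wt1 had their highest dorsal level there, most clearly Upk3b (7.57, against 3.74 to 4.15). Wt1 was at 5.03, against 4.67 to 5.09. In that array the substrate Col1a1 was at 8.49, against 6.94 to 7.43 in the other dorsal arrays, and P4ha2 at 5.80. The part of these markers in the Pcolce and P4ha2 values was not tested.

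The related enhancer Pcolce2 was among the other genes of the pathway and had the smallest p of them. It stood at 4.65, 5.07, 4.51 and 4.15 in dorsal and 3.43, 3.70, 3.72 and 3.72 in ventral replicates 1 to 4, with no overlap. Its difference was -0.95 (SE 0.20, unadjusted p = 0.00175, limma adjusted p = 0.241), lower ventrally in 4 of 4 replicate numbers. The ventral values lie next to the array medians of 3.59 to 3.65, a range where background can compress a difference. Bmp1, the protease that cuts the C-terminal propeptide, differed by -0.13 (interval -0.68 to 0.42), and its relative Tll1 by 0.18 (interval -0.84 to 1.20). Tll1 was at 5.52 in ventral replicate 2 and between 3.33 and 3.90 on the other 7 arrays, and without number 2 it differed by -0.45.

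**Figure D3:**
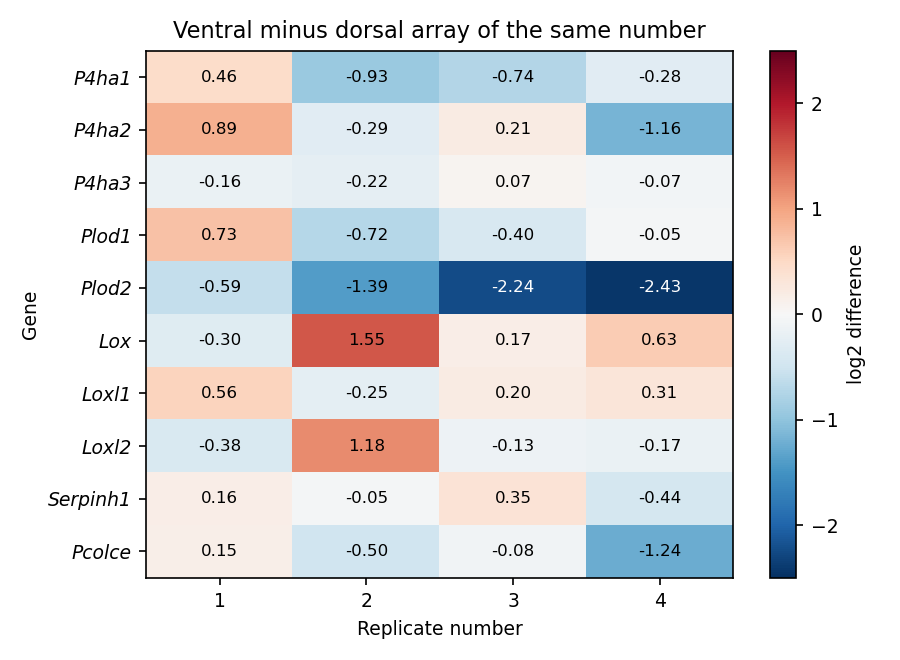
Ventral minus dorsal log2 difference of the 10 genes within each replicate number (rows genes, columns replicate numbers, blue lower and red higher in ventral tissue). Plod2 is below 0 in all 4 columns, from -0.59 to -2.43, while Lox and Loxl2 reach 1.55 and 1.18 in number 2 alone.

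Of the lysyl oxidases, Lox, the founding member of the family, had the widest spread in ventral tissue. It stood at 5.06, 5.34, 5.22 and 4.31 in dorsal and 4.77, 6.88, 5.39 and 4.93 in ventral replicates 1 to 4. Ventral replicate 2 was far above the rest, and the other 3 ventral arrays overlapped the dorsal ones. The difference was 0.51 (SE 0.30, interval -0.21 to 1.23, limma adjusted p = 0.736), higher ventrally in 3 of 4 replicate numbers, and 0.17 without number 2. Loxl2, whose product crosslinks basement membrane collagen, stood at 6.93, 6.14, 6.81 and 6.68 in dorsal and 6.55, 7.32, 6.68 and 6.51 in ventral replicates 1 to 4. Its highest ventral and its lowest dorsal value both came from replicate number 2. The difference was 0.13 (SE 0.28, limma adjusted p = 0.951) and -0.23 without that number. The mean of 10 smooth muscle genes was 4.54, 5.59, 4.94 and 5.56 in ventral replicates 1 to 4. That mean was about as high in ventral replicate 4, with Lox at 4.93 and the lowest ventral Loxl2 level, as in ventral replicate 2. The log2 of the summed intensity of these genes was 10.45 in ventral replicate 2 and 9.80 in ventral replicate 4. Actg2 (9.64 and 8.36), Acta2 (7.96 and 6.75), Tagln, Myh11 and Lmod1 were higher in ventral replicate 2. Synpo2 (4.15 and 5.90), Cnn1, Smtn, Des and Myocd were higher in ventral replicate 4. The part of smooth muscle in the Lox and Loxl2 values was not tested.

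Loxl1, an oxidase needed for elastic fibres, stood at 3.52, 3.86, 4.23 and 3.63 in dorsal and 4.09, 3.62, 4.43 and 3.94 in ventral replicates 1 to 4. It exceeded the array median on 5 of 8 arrays only, and its highest value in each tissue came from replicate 3. The difference was 0.21 (SE 0.17, interval -0.19 to 0.61, limma adjusted p = 0.812), and at such levels background limits what can be seen. The family members Loxl3 and Loxl4 differed by -0.41 (interval -0.91 to 0.0792) and -0.30 (interval -0.68 to 0.0826). Loxl4 was lower ventrally in 4 of 4 replicate numbers and Loxl3 in 3 of 4. Thus the estimates of Lox, Loxl1 and Loxl2 lay above 0 and those of Loxl3 and Loxl4 below it, with every interval including 0. Pxdn, a peroxidase that crosslinks type IV collagen, differed by 0.18 (interval -0.26 to 0.62).

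In all, 34 other genes of collagen maturation were listed, of which 32 were in the table and 25 tested. Of the 25, 14 had a higher and 11 a lower ventral estimate, the median difference was 0.026, and 0 passed the adjusted threshold. At an unadjusted p under 0.05 there was 1 gene, Pcolce2, beside the background of 8.26%. In the prolyl hydroxylation group, 7 of 7 genes were tested and 0 had an unadjusted p under 0.05. P3h1 and P3h2, which hydroxylate proline at another position, differed by 0.29 (interval -0.0578 to 0.63) and 0.45 (interval -0.0603 to 0.96), each higher ventrally in 4 of 4 replicate numbers. P3h4, a scaffold that acts with a lysyl hydroxylase, differed by -0.19. In the group of lysine modification, Plod3 and the collagen galactosyltransferase Colgalt1 (-0.0481) were the 2 genes tested. In the folding and export group, 9 of 11 genes were tested, with differences from -0.20 for the prolyl isomerase Fkbp9 to 0.27 for its relative Fkbp7. Sparc, a collagen-binding glycoprotein, differed by 0.21. In the crosslinking group, 4 of 5 genes were tested and 0 had an unadjusted p under 0.05.

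The substrates of these enzymes had differences in both directions. Of 11 fibrillar collagen chains, 11 were tested, 7 with a higher and 4 with a lower ventral estimate, and 3 had an unadjusted p under 0.05, beside 8.26% of all genes tested. Col2a1 and Col11a1, chains of cartilage collagen, differed by -2.69 (SE 0.31, limma adjusted p = 0.0717) and -1.63 (SE 0.30, limma adjusted p = 0.211). Col1a2, a chain of the type I collagen of general connective tissue, stood at 6.95, 7.14, 6.97 and 6.92 in dorsal and 7.67, 7.69, 7.83 and 7.20 in ventral replicates 1 to 4. Its tissues did not overlap, with a difference of 0.60 in the other direction (SE 0.16, limma adjusted p = 0.363). Col1a1, its partner chain, differed by 0.46 (interval -0.29 to 1.21), with dorsal replicate 4 at 8.49 above all ventral arrays. Genes whose products act on all of these chains, such as P4ha1, P4hb and the chaperone gene Serpinh1, had intervals that included 0.

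**Figure D4:**
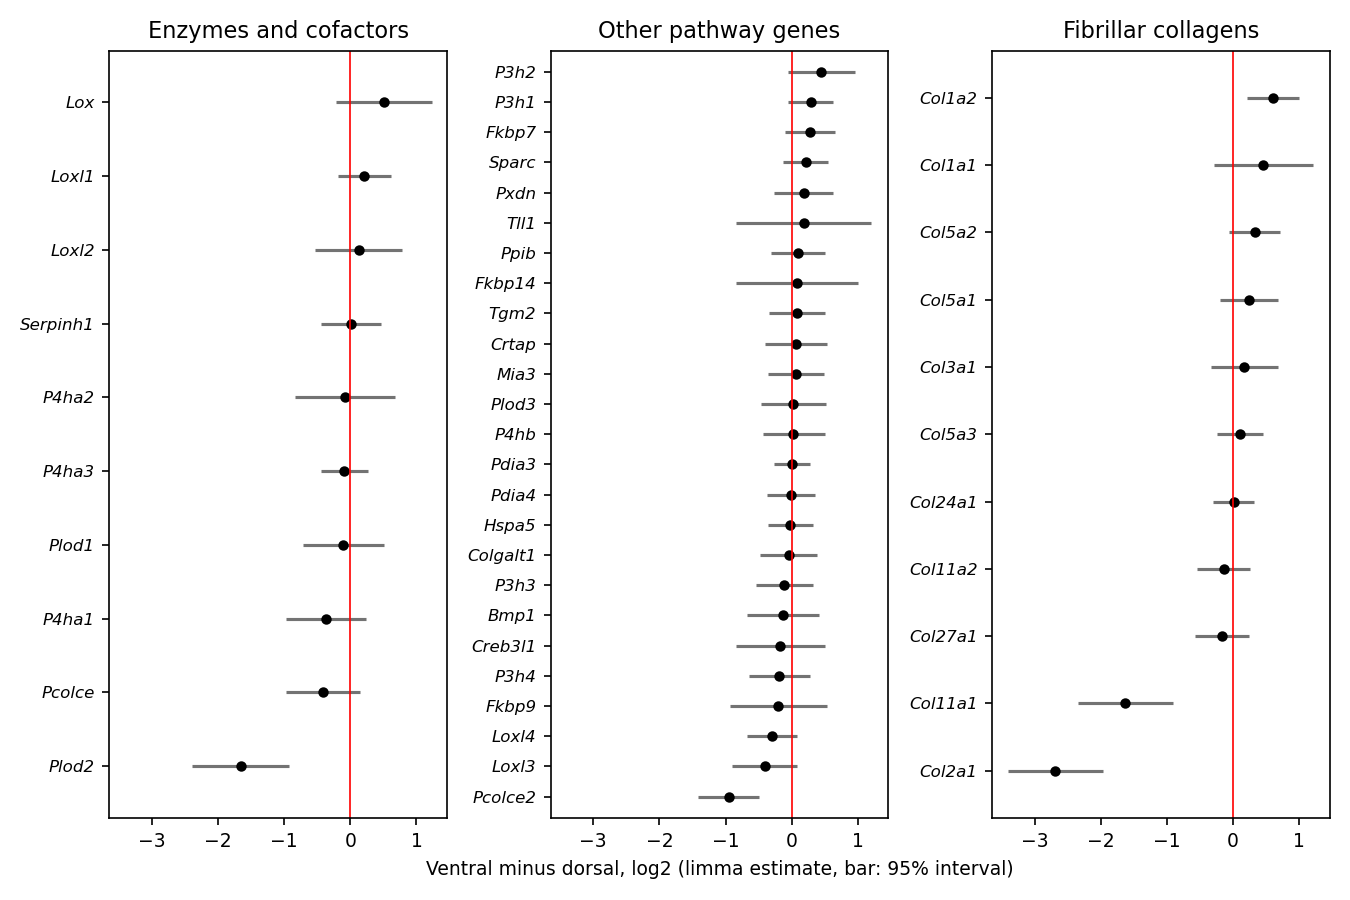
Ventral minus dorsal differences (log2, limma estimate with its 95% interval) of the 10 genes, the 25 other tested genes of collagen maturation and the 11 fibrillar collagen chains. The interval of Plod2 lies below 0 among the 10 genes, as does that of Pcolce2 among the other pathway genes and those of Col2a1 and Col11a1 among the chains, while that of Col1a2 lies above 0.

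The 10 genes did not move as a block across the arrays. Over the 45 pairs among them, Pearson r over the 8 arrays ranged from -0.69 (P4ha2 and Lox) to 0.77 (P4ha2 and Pcolce), with a median of 0.12 and 24 pairs above 0. P4ha1 and Plod2 correlated at 0.67, as did Plod2 and Pcolce, while Lox and Loxl2 correlated at 0.60. P4ha2 and Pcolce share their highest value in dorsal replicate 4, and Lox and Loxl2 theirs in ventral replicate 2, so single arrays weigh in these values. The mean level of the 10 genes was 5.53, 5.96, 6.04 and 5.91 in dorsal and 5.69, 5.80, 5.78 and 5.42 in ventral replicates 1 to 4, and the tissues overlapped. The genes nearest to that mean profile were Olfr1441 (r = 0.93), Lman1l and Dse (0.91 each) and Col9a2 and Nqo1 (0.90 each). Dse makes dermatan sulfate and Col9a2 is a chain of cartilage collagen.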

How the data were processed

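Per the submitters' processing notes, the authors processed the arrays with Affymetrix Expression Console and RMA, and deposited log2 intensities. RMA corrects background, equalises the arrays and summarises probes, so differences are relative to the other genes of an array. The array definition and its build are not given in the sources used here. Each of 25429 rows bears an Entrez gene number. The platform table gave 24675 rows 1 symbol, 0 several and 754 none, and symbols were updated through RefSeq (GRCm38.p6).

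Genes above the array median on at least 4 of 8 arrays (12416) were fitted with limma 3.58.1 in R 4.3.3 (lmFit, eBayes with trend and robust estimation), with terms for tissue and for replicate number (a fixed block), and Benjamini-Hochberg adjustment with a threshold of 0.05. The block was kept because the labels take both tissues from the same embryos. The number of arrays limits the precision. The code was tested on simulated data. The 10 genes and all lists were chosen with earlier results of these data known. Named are the 10 genes, the 3 smallest p of each pathway, substrate and hypoxia list, and the 5 genes with the highest r. P4hb, Col1a1, Pax9 and the fibroblast and mesenchyme genes Dcn, Lum, Postn, Pdgfra and Prrx1 were named after their values were seen. So were the sclerotome and cartilage markers Matn1, Matn4, Comp, Acan, Pax1, Nkx3-2 and Cnmd. Sox9 and Hapln1 were set beside Nkx3-2 and Cnmd with the values known. The single smooth muscle, spinal cord and mesothelium genes were also named after their values were seen. Lists of cell markers are printed where they set single arrays apart or are described beside one of the 10 genes. The other marker lists examined are not printed.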

Additional observations from a re-analysis of the deposited data

Results flagged for a closer look

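Of 60 groups of 4 arrays examined (30 genes in 2 tissues), 4 held an array set apart from the other 3 by most of the group's range, and chance alone sets apart about 5% of such groups. Plod2 was at 7.14 in dorsal replicate 1 and between 8.30 and 8.49 on the other dorsal arrays. Without replicate number 1 its ventral minus dorsal difference was -2.02, against -1.66 with all arrays. Plod3 was at 5.94 in ventral replicate 2 and between 5.12 and 5.17 on the other ventral arrays. Pcolce2 was at 3.43 in ventral replicate 1 and between 3.70 and 3.72 on the other ventral arrays, all near the array medians. Tll1 was at 5.52 in ventral replicate 2 and between 3.33 and 3.48 on the other ventral arrays.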

How the results depend on the processing

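Results were recomputed under 12 alternatives, except that the stricter filter no longer tests 3 of the 10 genes (P4ha2, P4ha3 and Loxl1) and 5 of the 20 other named genes. None of the 10 genes was called under the alternatives in which it was tested (smallest adjusted p 0.0667, Plod2 without replicate number 1), and 6 of the 10 kept their sign in these. Plod2 ranged from -2.02 to -1.40. Of the 20 other named genes, Col2a1 alone was called, with no replicate block (-2.69, adjusted p = 0.0222), a random block (0.0192), the stricter filter (0.0409) and without replicate number 1 (-2.95, 0.0465).

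The labels do not say that a number marks 1 embryo. Deviations of same-numbered arrays correlated at 0.11, 0.03, 0.02 and 0.12, and those of differently numbered arrays at -0.13 to 0.10. With no replicate block, and with a random one, 4 genes were called, 0.0322% of those tested, in place of 0, and with the stricter filter 10. Other collagen maturation genes at an unadjusted p under 0.05 numbered 2 with no replicate block or a random one, and 0 under the stricter filter, where Pcolce2 is among the untested. With array weights Plod3 differed by -0.0172.

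With 1 replicate number left out, called genes ranged from 0 to 9 (9 without number 1). At an unadjusted p under 0.05 the 10 genes numbered 1 to 4 (4 without number 1), the other collagen maturation genes 1 to 3 (2 without number 1, 3 without 2 or 4), and the hypoxia genes 0 to 2 (2 without number 1, 0 without 3 or 4). Genes whose sign changed ranged as follows: P4ha2 from -0.41 to 0.27, Plod1 from -0.39 to 0.096, Loxl2 from -0.23 to 0.29, Serpinh1 from -0.11 to 0.16, Colgalt1 from -0.13 to 0.04, Plod3 from -0.11 to 0.19, Fkbp9 from -0.40 to 0.21, Bmp1 from -0.34 to 0.0326 and Tll1 from -0.45 to 0.42. The cause of these changes was not tested. Levels near the array medians, as for Loxl1 and Pcolce2, limit how far a difference can be measured.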
